A study of Mus musculus with 36 samples.

Results

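The genes of glycolysis and of the response to low oxygen were followed in mouse knees whose anterior cruciate ligament (ACL) had been injured 24 h earlier, with and without an inhibitor of protein kinase C (PKC). The members were a named list of 36 genes, matched by gene name in the deposited count table of 55291 genes and kept where they had at least 10 counts over 9 libraries. All 36 met that minimum. The rule uses no measured difference, but the members were chosen with earlier results of these data known. Pfkm, Pgam2 and Eno3, the isoforms of their enzymes that predominate in skeletal muscle, were set apart. The libraries came from 3 groups of mice with 3 biological replicates each, as the study's design calls them, and whether animals were pooled is not given in the sources used here. Sham mice had no ACL injury, vehicle mice were injured and given 0.9% saline, and inhibitor mice were injured and given a PKC inhibitor whose name and dose are not given in the sources used here. Every knee was taken at 24 h, and no sham group was given the inhibitor. Strain, age and sex are not given in the sources used here either. The study asked which transcripts change early after ACL injury and what inhibition of PKC does to them.

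Glycolysis splits glucose into pyruvate through a chain of cytosolic enzymes, and lactate dehydrogenase then turns pyruvate into lactate so that the pathway can run without oxygen. Hypoxia-inducible factor 1 (HIF-1) pairs an oxygen-labile subunit, encoded by Hif1a, with a stable partner, and raises transcription of glucose transporters, glycolytic enzymes and genes such as Vegfa when oxygen is low. Prolyl hydroxylases (Egln1, Egln3) mark the HIF-1 alpha protein for destruction in the presence of oxygen, so that the protein, rather than the transcript, is the classical point of control. Articular chondrocytes live without blood vessels and depend on glycolysis, as do activated neutrophils and macrophages, while fast muscle fibres use their own isoforms of several glycolytic enzymes.

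The libraries held 124 to 202 M counts, of which 91.2% to 98.2% fell on genes of 7SL RNA, and 3.28 to 11.9 M counts remained outside them. The members took 8859 to 43322 counts per library. Levels are given as normalised counts, which are counts brought to the mean effective size of the 9 libraries, and as normalised counts per kilobase (kb) of exon where genes are compared with each other. Inhibitor libraries 1 and 2 stood apart by their lower 7SL share, 91.5% and 91.2%. The tissue is labelled as knee joint in the sample labels, while a protocol of the series speaks of joint cartilage for the same set. All of the muscle, neutrophil, monocyte and macrophage, fibroblast, endothelial, adipocyte and osteoblast markers examined were counted in every library, as were all cartilage markers but Matn1, so the RNA came from several cell types, and fewer cells of a type cannot be told apart from less RNA per cell. Summed normalised counts of 12 cartilage markers ran from 9275 to 27420.3 in sham, 8897 to 11599.7 in vehicle and 2035 to 5512 in inhibitor libraries. Those of 13 neutrophil markers ran from 16886 to 23181, 9446 to 11919 and 9281 to 19618, and those of 11 monocyte and macrophage markers from 2549.9 to 3044, 2582 to 3988 and 2965 to 4542. The part of these mixtures in the results below was not tested except for muscle, where stated.

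Per kb over all libraries, Aldoa led the list at 688 normalised counts, followed by Gapdh at 459, Pkm at 427 and Ldha at 329. Aldoa encodes the aldolase of most tissues and of muscle, Gapdh the dehydrogenase that yields the first NADH of the pathway, Pkm its last kinase and Ldha the lactate dehydrogenase subunit that favours lactate. The regulators were far lower, with Hif1a at 46.4, Egln1 at 44.3 and Egln3 at 10.6 normalised counts per kb. At the bottom stood Adm at 4.95, Ankrd37 at 3.08, Aldoc at 1.12 and Car9 at 0.996. These 4 genes had too few counts for the main fit (edgeR after a count filter, over all 9 libraries). The other 32 members were among the 13823 genes tested in it.

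Several members have near-identical copies elsewhere in the genome, and reads that map to several places were counted in full at each. Of the 50-base words of the longest transcripts, 82.5% were shared with transcripts of other genes for Gapdh, 72.2% for Eno1, 68.0% for Pgk1, 41.5% for Pgam1, 34.4% for Pkm and 27.0% for Ldhb. The levels of these genes are therefore uncertain. Eno1b, the closest copy of Eno1, held counts equal to 20.1% of those of Eno1. Hif1a overlaps Snapc1l on the same strand, and reads over both were counted for each. The counts of Snapc1l equalled 7.03% to 20.6% of those of Hif1a in a library.

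**Figure D1:**
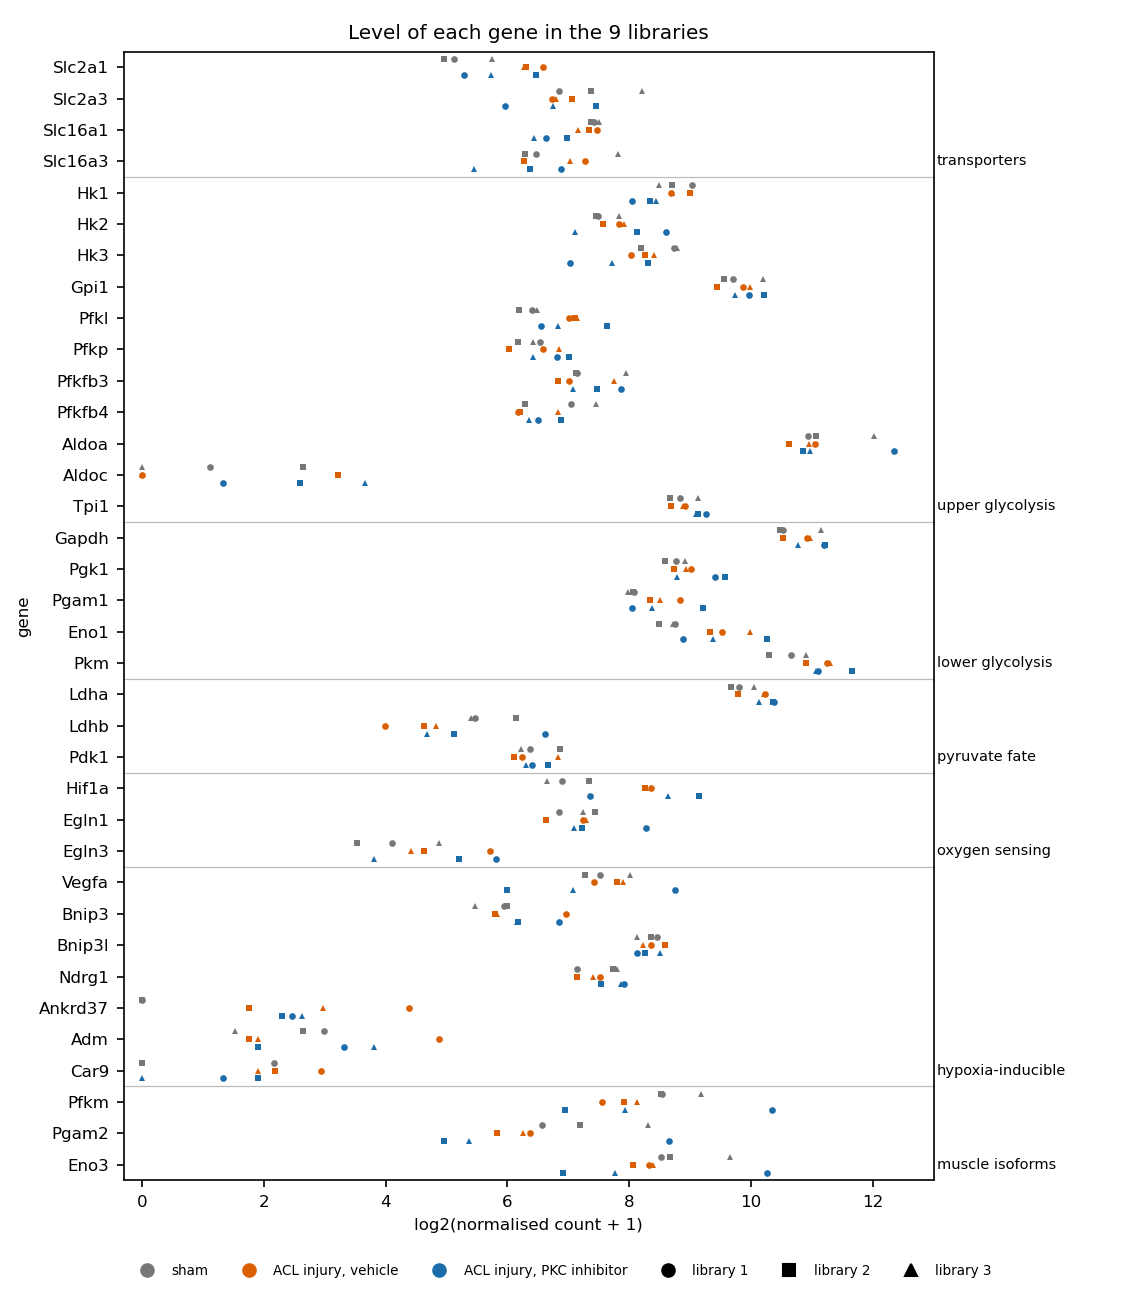
Level of each of the 36 genes as log2(normalised count + 1), on the horizontal axis, in 3 sham, 3 vehicle and 3 inhibitor libraries (colours, with a marker shape for each library). Hif1a, Eno1 and Slc2a1 lie higher in all vehicle than in all sham libraries, Ankrd37 is at 0 in all sham libraries, and Pfkm, Pgam2 and Eno3 are highest in inhibitor library 1.

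The first comparison, vehicle against sham, asks what injury with vehicle treatment does within 24 h. None of the 32 tested members passed an adjusted p of 0.05 (edgeR's quasi-likelihood test, Benjamini-Hochberg), against 0.304% of all genes tested. At an unadjusted p under 0.05 there were 6 members, Hif1a, Slc2a1, Pfkl, Eno1 and Pkm higher and Ldhb lower, a share of 18.8% where all genes gave 8.28%. DESeq2 called 1 member, Hif1a, where it called 1.04% of all genes. For 10 members the 3 vehicle libraries lay wholly apart from the 3 sham libraries, or 31.2% where all genes gave 17.0%. Of those 10, the 6 genes Hif1a, Slc2a1, Pfkl, Pgam1, Eno1 and Pkm lay above sham, or 18.8% where all genes gave 8.20%. Ldhb and the 3 muscle isoforms lay below it, or 12.5% where all genes gave 8.76%. Of the 29 tested members outside the muscle isoforms, 7 lay apart (24.1%), 6 above sham (20.7%) and 1 below it (3.45%). As a whole the list did not shift in one direction, with a median log2 fold change of -0.01 and 16 of 32 positive values, beside a median of -0.02 and 48.1% positive values over all genes. Outside the muscle isoforms the median was 0.07, with 16 of 29 positive values.

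Hif1a (chr12:73901375-73947530 on mm10), the oxygen-labile subunit of HIF-1, had 119, 161 and 100.0 normalised counts in sham libraries 1 to 3 and 326, 304 and 326 in vehicle libraries 1 to 3. Inhibitor libraries 1 to 3 had 163, 563 and 399. The lowest vehicle library stood well above the highest sham library, and the vehicle libraries were close to each other. The log2 fold change of vehicle over sham was 1.32 (adjusted p = 0.259, SE 0.37). It passed the threshold in 5 of 15 alternative analyses, with adjusted p from 1.98e-05 to 0.632, among them the fit without inhibitor library 1, at 1.32 (adjusted p = 0.00138, SE 0.22). The 2 prolyl hydroxylases that act on its protein showed no such separation. Egln1 had 114, 173 and 151 normalised counts in sham and 149.5, 98.7 and 156 in vehicle libraries. Egln3, whose transcript is itself a HIF target, had 16.3, 10.5 and 28.3 in sham and 51.5, 23.8 and 20.5 in vehicle libraries, and these overlapped.

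Among the transporters, Slc2a1, the glucose transporter GLUT1 of most cells, stood at 33.7, 30.2 and 52.8 normalised counts in sham and 94.7, 78.5 and 76.4 in vehicle libraries. All vehicle libraries exceeded all sham libraries, at a log2 fold change of 1.11 (adjusted p = 0.292, SE 0.36). Slc2a3, the high-affinity transporter GLUT3, had 114, 164 and 296 in sham and 105, 133 and 110.5 in vehicle libraries, where the ranges overlapped. The lactate transporter genes Slc16a1 (MCT1) and Slc16a3 (MCT4, the exporter of glycolytic cells) had means of 172 ± 8.16 and 129.7 ± 82.2 in sham against 159 ± 17.2 and 119.5 ± 39.4 in vehicle knees (SD, n = 3). Of the 4 transporter genes, only Slc2a1 separated vehicle from sham.

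In the upper pathway, from hexokinase to triose phosphate isomerase, 1 of 10 tested genes separated the groups. Pfkl, the liver-type subunit of phosphofructokinase and part of the committed step, had 83.7, 72.1 and 88.6 normalised counts in sham and 128, 137 and 140.5 in vehicle libraries, a log2 fold change of 0.73 (adjusted p = 0.420, SE 0.28). The others overlapped. The hexokinases, which trap glucose in the cell, had means of 433 ± 82.8 (Hk1), 193 ± 29.0 (Hk2) and 385 ± 81.7 (Hk3) in sham knees, against 446 ± 56.1, 219 ± 27.2 and 301 ± 38.2 in vehicle knees. Gpi1, the isomerase after hexokinase, had 923 ± 225 in sham and 879 ± 163 in vehicle knees, and Tpi1, which interconverts the triose phosphates, had 474 ± 77.0 and 454 ± 39.9. Pfkp, the platelet-type phosphofructokinase, had 82.5 ± 10.7 and 91.2 ± 25.4. Pfkfb3 and Pfkfb4, which set the level of the activator fructose 2,6-bisphosphate, had 175 ± 62.2 and 127 ± 48.2 in sham against 152 ± 54.6 and 85.7 ± 23.8 in vehicle knees. Aldoa had 2754 ± 1229 against 1890.4 ± 279, and its highest sham value, in library 3, was in the sham library with the most muscle marker counts.

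The 5 genes of the lower pathway, from Gapdh to Pkm, all had positive log2 fold changes, with a median of 0.52. Eno1, the enolase of most non-muscle cells, had 431, 359 and 422 normalised counts in sham and 736, 643 and 1008 in vehicle libraries, a log2 fold change of 0.98 (adjusted p = 0.292, SE 0.30). Its copy Eno1b gave means of 73.9 and 169, which may count the same reads as Eno1 and are no separate measurement. Pkm had 1612, 1257 and 1916 in sham and 2428, 1917 and 2504 in vehicle libraries, a log2 fold change of 0.52 (adjusted p = 0.570, SE 0.23). Its highest sham and lowest vehicle libraries were nearly level. Pgam1, the mutase of most tissues, had 269, 265 and 253 in sham and 457, 325 and 361 in vehicle libraries, a log2 fold change of 0.54 (adjusted p = 0.621, SE 0.26). For these 3 genes every vehicle library lay above every sham library. Gapdh and Pgk1, the first kinase that makes ATP in the pathway, overlapped between groups, at 1723 ± 483 and 434 ± 49.1 in sham against 1806 ± 294 and 475 ± 44.3 in vehicle knees. Without inhibitor library 1 in the fit, 1.65% of all genes passed, and Eno1 and Hif1a were the members among them, Eno1 at 0.98 (adjusted p = 0.0274, SE 0.23). Without inhibitor library 2 instead, neither passed, with Eno1 at 0.99 (adjusted p = 0.0525, SE 0.22) and Hif1a at 1.34 (adjusted p = 0.0642, SE 0.30).

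At the fate of pyruvate, Ldhb, the lactate dehydrogenase subunit of oxidative tissues, had 43.0, 69.5 and 41.5 normalised counts in sham and 15.0, 23.8 and 27.3 in vehicle libraries. All vehicle libraries lay below sham, at a log2 fold change of -1.21 (adjusted p = 0.492, SE 0.50). Ldha had 893, 813 and 1054 in sham and 1195, 887 and 1192 in vehicle libraries, and Pdk1, a mitochondrial kinase that inhibits pyruvate dehydrogenase, had 90.1 ± 22.2 and 85.2 ± 24.5, so that both overlapped. The tested hypoxia-inducible genes also overlapped. Vegfa, the main growth factor of blood vessels, had 183, 153 and 256 in sham and 171, 221 and 237 in vehicle libraries. Bnip3 and Bnip3l, receptors for removal of mitochondria, had 55.6 ± 10.6 and 317 ± 36.5 in sham against 77.9 ± 39.1 and 335 ± 42.3 in vehicle knees, and Ndrg1, a stress-responsive gene, had 192 ± 44.6 against 164 ± 21.7.

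**Figure D2:**
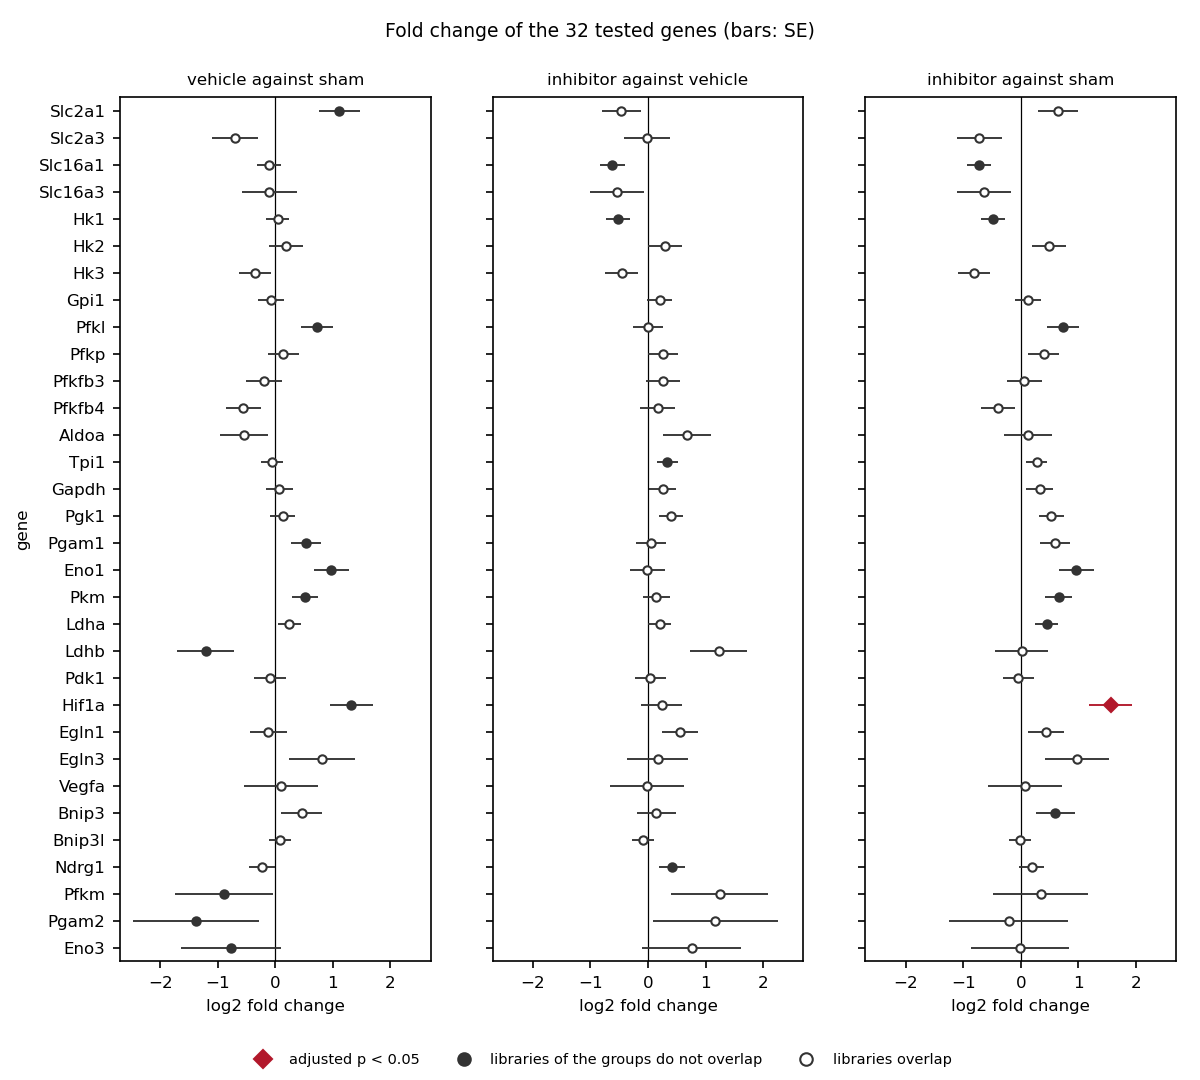
Log2 fold change of each of the 32 tested genes with its SE (horizontal axis, bars) in the 3 comparisons. Filled circles are genes whose libraries do not overlap between the groups, and the red diamond is Hif1a in inhibitor against sham knees, with an adjusted p of 0.0426.

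HIF-1 binds DNA through a core whose letters are ACGTG or GCGTG. Only ACGTG, called the core below, was looked for, on either strand, and GCGTG was not. The search covered the 250 bases before each start listed in a RefSeq promoter table (GRCm38.p6), where 33 of the 36 members had an entry. Ndrg1, Slc2a3 and Bnip3l had none. The letters ACGTG stood before at least 1 start of 19 of the 33 members, or 57.6%, and of 4998 of the 27025 genes in the table, or 18.5%. Counted by start, 22 of 47 member starts (46.8%) and 16.6% of all 32851 starts held them. The palindrome CACGTG, the E-box of other factors, contains the core on both strands and was counted once, and it stood before 18.2% of members and 6.86% of all genes. A match is a run of letters and not a measured binding site. The list was made of glycolysis and hypoxia response genes, which include HIF-1 targets, so a higher share than over all genes was likely beforehand. Whether HIF-1 acted on these genes in these knees was not tested. Of the 6 members whose vehicle libraries lay above sham, Hif1a, Slc2a1, Pgam1 and Pkm held ACGTG. Pfkl and Eno1 did not hold ACGTG in this window. Both hold GCGTG there, a form that was not counted for any gene. The sequences below show Hif1a with both kinds of match, Pgam1 with 1 core and Eno1 without a match to ACGTG. Ldha, with 3 matches, is shown for comparison, since its vehicle libraries overlapped sham. The sequences run 5′ to 3′ on the gene's strand, end at the base before the start, and carry the match in capitals. They lie at chr12:73907617-73907866 (+ strand), chr19:41911621-41911870 (+ strand), chr4:150236458-150236707 (+ strand) and chr7:46845554-46845803 (+ strand).
Hif1a: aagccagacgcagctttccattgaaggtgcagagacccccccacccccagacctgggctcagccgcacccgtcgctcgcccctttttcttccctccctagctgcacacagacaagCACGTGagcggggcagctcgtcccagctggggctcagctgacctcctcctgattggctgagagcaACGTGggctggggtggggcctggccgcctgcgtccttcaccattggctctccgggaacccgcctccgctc
Pgam1: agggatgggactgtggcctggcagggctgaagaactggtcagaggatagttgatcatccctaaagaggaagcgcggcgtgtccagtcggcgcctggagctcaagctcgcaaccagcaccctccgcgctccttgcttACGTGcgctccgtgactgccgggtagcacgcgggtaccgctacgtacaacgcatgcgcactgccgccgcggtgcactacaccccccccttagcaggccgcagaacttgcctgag
Eno1: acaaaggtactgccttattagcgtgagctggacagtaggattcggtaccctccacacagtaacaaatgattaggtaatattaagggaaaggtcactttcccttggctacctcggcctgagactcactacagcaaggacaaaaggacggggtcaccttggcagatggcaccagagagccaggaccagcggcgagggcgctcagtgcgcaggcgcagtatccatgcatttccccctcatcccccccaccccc
Ldha: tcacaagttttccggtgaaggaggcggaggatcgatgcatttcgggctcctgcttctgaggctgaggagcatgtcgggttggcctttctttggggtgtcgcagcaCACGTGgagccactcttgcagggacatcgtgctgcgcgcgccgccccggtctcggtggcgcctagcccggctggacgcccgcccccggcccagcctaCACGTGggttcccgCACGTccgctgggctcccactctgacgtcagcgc
In Hif1a the palindrome lies 135 to 130 bases and the core 70 to 66 bases before the start. The core of Pgam1 lies 114 to 110 bases before it, and the match nearest to the start of Ldha 34 to 30 bases before it.

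The second comparison, inhibitor against vehicle, asks what PKC inhibition changes in injured knees. None of the 32 tested members passed the threshold (edgeR, adjusted p), against 0.731% of all genes. None passed in any of the 15 alternatives, among them DESeq2, which called 2.13% of all genes, and the fit without inhibitor library 1, which called 0.650%. At an unadjusted p under 0.05 there were 3 members, Hk1 and Slc16a1 lower and Ldhb higher, or 9.38% where all genes gave 13.4%. The libraries of the groups lay wholly apart for 4 members, or 12.5% where all genes gave 18.9%. Both shares are below those of all genes. Tpi1 and Ndrg1 lay above vehicle, or 6.25% where all genes gave 8.44%, and Hk1 and Slc16a1 below it, or 6.25% where all genes gave 10.4%. The median log2 fold change was 0.19 with 23 of 32 positive values, against 0.04 and 53.8% for all genes, and without inhibitor library 1 it was 0.08 with 19 of 33 positive values.

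Slc16a1, the lactate and pyruvate carrier MCT1, had 169.8, 165 and 181 normalised counts in sham, 176, 160.5 and 142 in vehicle and 98.3, 125 and 85.7 in inhibitor libraries. Sham and vehicle libraries overlapped, and every inhibitor library lay below all 6 of them. The log2 fold change against vehicle was -0.62 (adjusted p = 0.205, SE 0.21). The 250 bases before its start, at chr3:104638414-104638663 (+ strand), hold 1 palindrome, shown in capitals.
Slc16a1: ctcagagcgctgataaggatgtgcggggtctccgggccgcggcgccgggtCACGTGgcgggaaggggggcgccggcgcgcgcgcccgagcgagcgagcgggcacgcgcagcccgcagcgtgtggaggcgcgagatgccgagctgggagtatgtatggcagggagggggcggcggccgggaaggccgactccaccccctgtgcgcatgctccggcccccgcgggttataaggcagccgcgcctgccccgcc
Hk1, the broadly expressed hexokinase, had 523, 417 and 360.2 normalised counts in sham, 412, 511 and 416 in vehicle and 264, 323 and 348 in inhibitor libraries. It was likewise lower in all inhibitor libraries than in the other 6, at a log2 fold change against vehicle of -0.52 (adjusted p = 0.263, SE 0.20). Tpi1 with 484, 409 and 471 in vehicle and 609.8, 561 and 546 in inhibitor libraries, and Ndrg1 with 183, 140.3 and 169 and 240.0, 185 and 231, lay above vehicle. Their log2 fold changes were 0.33 (adjusted p = 0.464, SE 0.19) for Tpi1 and 0.41 (adjusted p = 0.448, SE 0.22) for Ndrg1. For Tpi1, sham library 3, at 558, was as high as the inhibitor libraries.

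The members that lay highest after injury differed widely among inhibitor libraries. Slc2a1 had 38.3, 88.0 and 51.9 normalised counts in inhibitor libraries 1 to 3, spanning from the sham to the vehicle range, and a log2 fold change against vehicle of -0.46 that did not pass. Eno1 had 471, 1229.8 and 665, Pgam1 264, 589 and 331 and Pfkl 92.3, 198 and 113 in those libraries. Library 2 was the highest of all 9 for Hif1a, Eno1, Pgam1, Pfkl, Pkm and Pgk1, while library 1 was the lowest of the inhibitor libraries for Hif1a, Eno1, Pgam1 and Pfkl. Library 1 also had the most muscle and library 2 the least, as given below. Vegfa had 429, 62.3 and 134 in inhibitor libraries, so that library 1 was the highest and library 2 the lowest of all 9. Egln1, with 308, 149 and 135, was highest in library 1 as well. So was Ldhb, with 96.8, 33.9 and 24.7, where library 3 lay within the vehicle range. Its log2 fold change against vehicle was 1.23 (adjusted p = 0.278, SE 0.49). Without inhibitor library 1 it was 0.43 (adjusted p = 0.724, SE 0.44), and without inhibitor library 2 it was 1.45 (adjusted p = 0.192, SE 0.50).

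The third comparison, inhibitor against sham, shares its sham libraries with the first and its inhibitor libraries with the second. Only 1 member, Hif1a, passed the threshold (edgeR, adjusted p), or 3.12% of the 32, where 3.95% of all genes passed. DESeq2 called 2, Eno1 and Hif1a, where it called 5.86% of all genes. At an unadjusted p under 0.05 there were 10 members, or 31.2% where all genes gave 18.0%. The members' median log2 fold change was 0.23 with 22 of 32 positive values, beside 0.03 and 52.4% for all genes. The log2 fold change of Hif1a over sham was 1.56 (adjusted p = 0.0426, SE 0.37), and all 3 inhibitor libraries lay above all sham libraries, library 1 narrowly, at 163 against 161. The call was lost in 9 of 15 alternatives, with values from 1.04 to 1.93 and adjusted p from 6.28e-09 to 0.172. It was lost when any sham library, any vehicle library or inhibitor library 2 or 3 was left out, with adjusted p from 0.0712 to 0.172. It was also lost in a fit of the 6 compared libraries alone, at an adjusted p of 0.122. The libraries lay wholly apart for 8 members, or 25% where all genes gave 22.9%. Of these, the 6 genes Hif1a, Pfkl, Eno1, Pkm, Ldha and Bnip3 lay above sham, or 18.8% where all genes gave 11.2%, and Hk1 and Slc16a1 below it, or 6.25% where all genes gave 11.6%.

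The values of those members against sham were as follows. On the log2 scale Eno1 stood at 0.97 (adjusted p = 0.0983, SE 0.30), Pkm at 0.66 (adjusted p = 0.133, SE 0.23) and Pfkl at 0.74 (adjusted p = 0.157, SE 0.27). In vehicle against sham, which shares the sham libraries, the values were 0.98, 0.52 and 0.73. Ldha had 1329.8, 1321 and 1122 normalised counts in inhibitor libraries, at 0.45 (adjusted p = 0.240, SE 0.20), and Bnip3 had 114, 71.3 and 70.1, at 0.60 (adjusted p = 0.390, SE 0.34). Slc16a1 was at -0.73 (adjusted p = 0.0673, SE 0.21) and Hk1 at -0.48 (adjusted p = 0.222, SE 0.20). Hk3, the hexokinase of myeloid cells, had 424, 291 and 439 in sham and 129.8, 315 and 209 in inhibitor libraries. In the same fit, 7 of 13 neutrophil markers passed the threshold as lower in inhibitor than in sham knees, where 371 of all 13823 genes did. Of the 13 markers, 2 had positive log2 fold changes. The monocyte and macrophage markers went the other way, with positive log2 fold changes for all 11, of which 1, Cd68, passed as higher. Whether the neutrophil or the monocyte and macrophage markers account for Hk3 was not tested.

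Inhibitor libraries 1 and 2 moved this comparison in opposite directions. Without library 1, 8 of 33 members passed the threshold in inhibitor against sham knees, 4 higher and 4 lower, where 5.95% of all genes passed. Hif1a stood at 1.93 (adjusted p = 4.06e-05, SE 0.23), Eno1 at 1.24 (adjusted p = 0.00490, SE 0.25), Pfkl at 0.96 (adjusted p = 0.0314, SE 0.26) and Pgam1 at 0.83 (adjusted p = 0.0407, SE 0.24). The lower members were Vegfa at -1.05 (adjusted p = 0.0451, SE 0.30) and the muscle isoforms Pfkm at -1.28 (adjusted p = 0.0134, SE 0.29), Pgam2 at -2.41 (adjusted p = 0.00490, SE 0.44) and Eno3 at -1.66 (adjusted p = 0.0105, SE 0.34). Without library 2, Hk3 alone of 33 members passed, at -1.19 (adjusted p = 0.0337, SE 0.27), where 281 of all 14053 genes tested, or 2.0%, passed. Hif1a then stood at 1.14 (adjusted p = 0.0922, SE 0.32), Eno1 at 0.49 (adjusted p = 0.339, SE 0.24), Pfkl at 0.33 (adjusted p = 0.583, SE 0.26) and Pgam1 at 0.18 (adjusted p = 0.757, SE 0.22). Vegfa at 0.53, Pfkm at 0.82, Pgam2 at 0.30 and Eno3 at 0.45 were positive without library 2 and did not pass, where they were negative without library 1. Vegfa and the muscle isoforms were the members with the highest level of all 9 libraries in inhibitor library 1 and the lowest in inhibitor library 2.

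**Figure D3:**
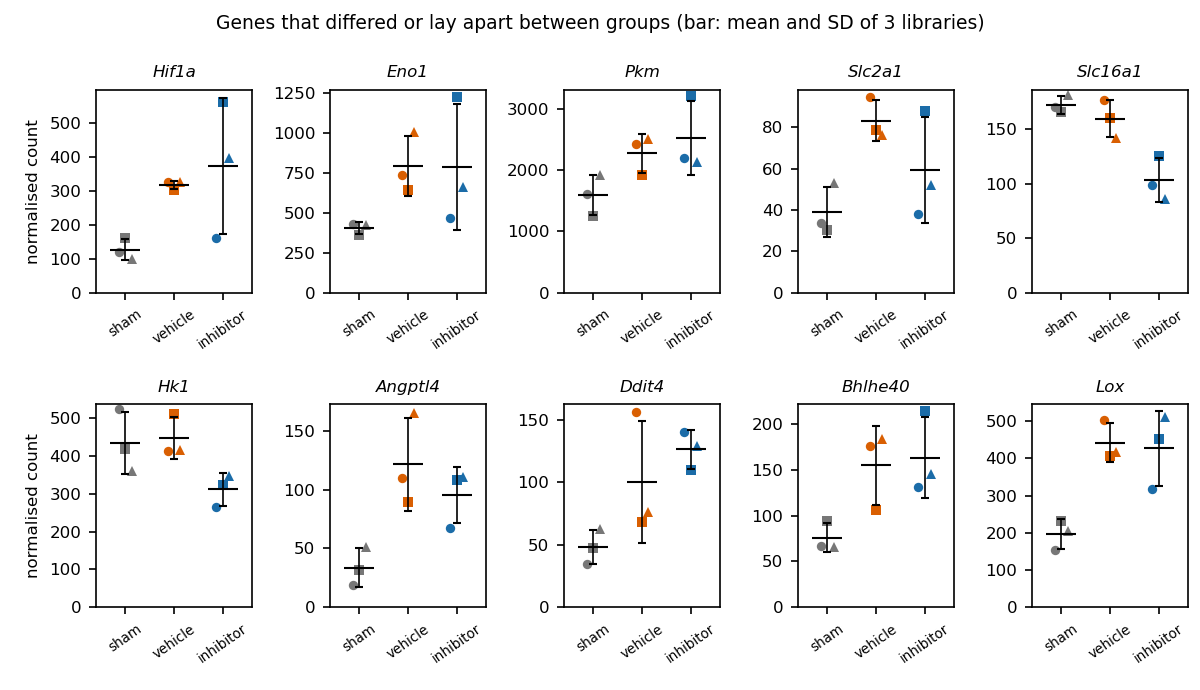
Normalised counts (vertical axes, from 0) of 6 members and 4 other hypoxia-inducible genes in the 9 libraries, with the mean and SD of 3 libraries per group. Hif1a, Eno1, Pkm and the lower row from Angptl4 to Lox are higher in vehicle than in sham knees, Slc16a1 and Hk1 are lowest in inhibitor knees, and inhibitor library 1 (circle) is the lowest of its group for Hif1a, Eno1, Slc2a1, Hk1, Angptl4, Bhlhe40 and Lox.

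The muscle isoforms were high and low in the same libraries as the muscle genes. Pfkm, the phosphofructokinase of muscle, had 371, 364 and 581 normalised counts in sham, 186, 239 and 278 in vehicle and 1301, 122 and 244 in inhibitor libraries. Pgam2 had 94.2, 146 and 317, 81.4, 55.9 and 75.0 and 404, 30.0 and 40.2, and Eno3 had 367, 405 and 809, 321, 265 and 336 and 1223, 119.6 and 217. All were lower in every vehicle than in every sham library, and all were highest in inhibitor library 1 and lowest in inhibitor library 2. Their log2 fold changes in vehicle against sham were -0.90 (adjusted p = 0.858, SE 0.85), -1.38 (adjusted p = 0.817, SE 1.10) and -0.78 (adjusted p = 0.882, SE 0.87). The summed normalised counts of 18 skeletal muscle markers, all of them counted in every library, ran from 23978 to 58144 in sham, 14292 to 23327 in vehicle and 6876 to 121446 in inhibitor libraries, and all 18 markers had negative log2 fold changes in vehicle against sham.

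Set against that sum, the isoforms varied far less. Pfkm spanned 10.7-fold over the 9 libraries as a normalised count and 2.22-fold per muscle count, from 7.98 to 17.7 per 1000 counts of the muscle list. For Eno3 the span fell from 10.2-fold to 1.84-fold and for Pgam2 from 13.5-fold to 2.06-fold. Aldoa, which other cells also express, went the other way, from 3.28-fold to 6.26-fold. With the mean muscle level of each library as a covariate, Pfkm in vehicle against sham turned to 0.12 (adjusted p = 0.936) and Eno3 to 0.33 (adjusted p = 0.606), and Pgam2 to -0.03. The 6 members whose vehicle libraries lay above sham stayed positive and were all smaller in that fit. Hif1a went from 1.32 to 0.84 (adjusted p = 0.0614), Slc2a1 from 1.11 to 0.87, Eno1 from 0.98 to 0.65, Pfkl from 0.73 to 0.47, Pgam1 from 0.54 to 0.28 and Pkm from 0.52 to 0.45, and none passed. Vegfa spanned 6.88-fold as a normalised count and 4.38-fold per muscle count, a smaller change of span than for the muscle isoforms.

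**Figure D4:**
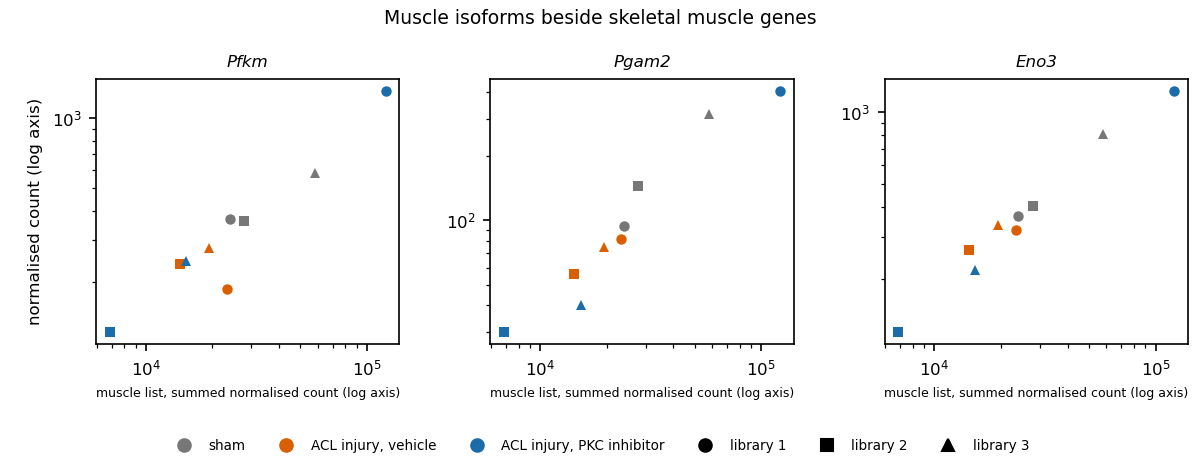
Normalised count of Pfkm, Pgam2 and Eno3 (vertical log axes) against the summed normalised count of 18 skeletal muscle markers (horizontal log axes) in the 9 libraries. In each panel inhibitor library 1 lies at the upper right and inhibitor library 2 at the lower left, with vehicle libraries below sham libraries.

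The make-up of the isoform families is given per kb of exon. Of the glucose transporter counts of Slc2a1 and Slc2a3, Slc2a1 took 37.9%, 27.5% and 26.9% in sham libraries, 65.2%, 54.9% and 58.8% in vehicle libraries and 56.2%, 51.1% and 50.2% in inhibitor libraries. Its mean share was 30.8% ± 6.19 in sham, 59.6% ± 5.17 in vehicle and 52.5% ± 3.26 in inhibitor knees (SD, n = 3), and both injured groups lay wholly above sham. An exact permutation test of 3 against 3 libraries cannot go below p = 0.10, so no p is given for shares. The share also depends on Slc2a3, which had 61.5, 174 and 106 normalised counts in inhibitor libraries 1 to 3. In inhibitor library 1 the share stayed above sham, with Slc2a3 at its lowest of all 9 libraries and Slc2a1, at 38.3, within the sham range. The level of Slc2a1 in inhibitor library 3, 51.9, lay within the sham range too.

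Ldha made up 89.3% ± 4.02 of lactate dehydrogenase in sham and 95.8% ± 1.44 in vehicle knees, again without overlap, and 92.4% ± 4.93 in inhibitor knees, which overlapped both. Among phosphofructokinases, Pfkl took 8.37% ± 1.39 in sham and 21.1% ± 2.37 in vehicle knees but 3.36%, 39.1% and 17.6% in inhibitor libraries, where Pfkm counts were highest in library 1 and lowest in library 2. Eno1 and Pgam1 took 21.4% ± 6.58 and 41.2% ± 14.9 of their families in sham and 45.3% ± 3.53 and 69.5% ± 2.13 in vehicle knees, where the muscle partner took the rest. Hk2, the inducible hexokinase that is also that of muscle, took 14.4%, 18.6% and 19.0% of hexokinase counts in sham, 24.2%, 18.1% and 22.4% in vehicle and 49.6%, 27.4% and 19.1% in inhibitor libraries. Per kb of exon, Hk3 remained the leading hexokinase transcript in all libraries except inhibitor library 1. That ranking depends on the length used. Annotated exons add up to 8532 bases for Hk1 and 3682 for Hk3, but their longest transcripts to 4278 and 3219. As a normalised count Hk1 was above Hk3 in every library, such as sham library 2 (417 against 291), except sham library 3 (360 against 439). The exon lengths of Eno1 and Pfkl, 5379 and 6675 bases, likewise exceed their longest transcripts of 2027 and 3730.

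**Figure D5:**
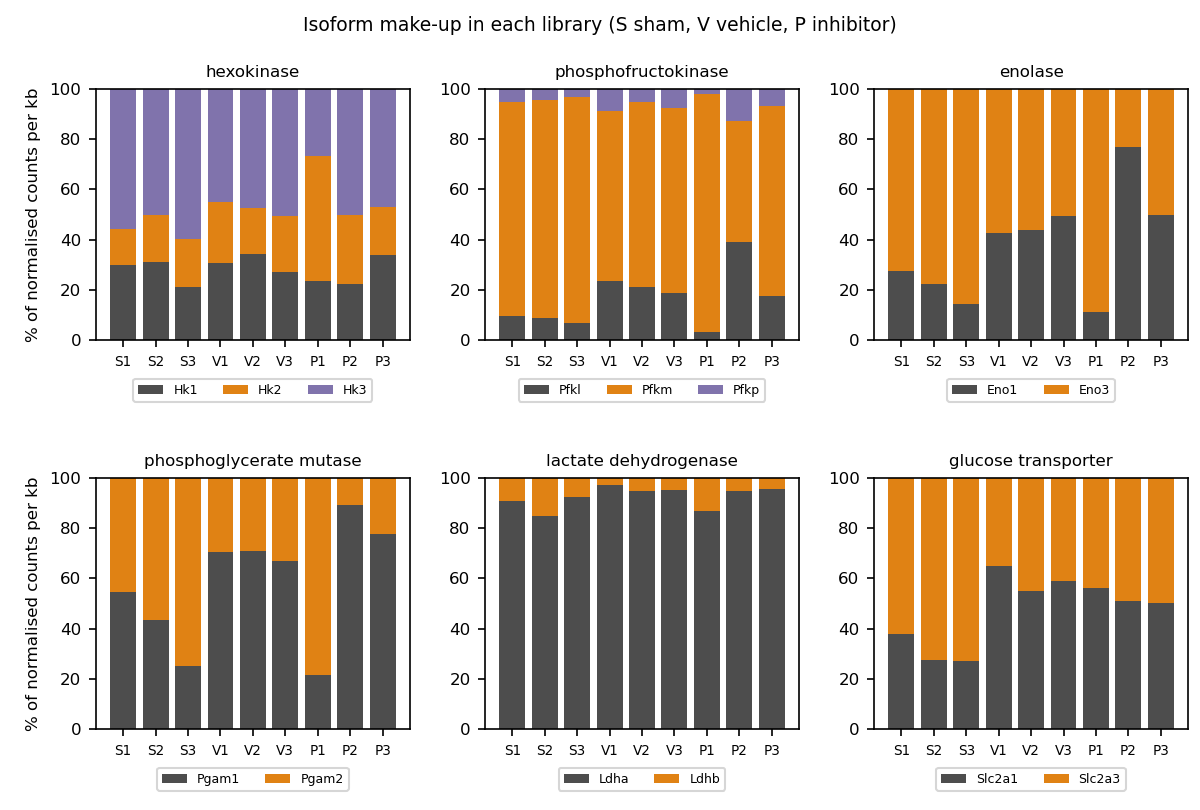
Share of each isoform in the normalised counts per kb of its family (vertical axes, in %) for 6 families in the 9 libraries. The Slc2a1 share is higher in all injured libraries than in all sham libraries, while the shares with a muscle isoform (Pfkm, Eno3, Pgam2) swing between inhibitor libraries 1 and 2.

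The 4 members with too few counts for the main fit included known hypoxia targets. Ankrd37, an ankyrin-repeat gene induced by HIF-1, had no count in any sham library, 19 counts over the vehicle and 20 over the inhibitor libraries. With an assumed floor of 3 counts over the sham group, the ratio to sham was 6.27 in vehicle and 3.07 in inhibitor knees. These ratios set no bound on the difference between groups. The fit without inhibitor library 1 tested Ankrd37, at a log2 fold change of 6.18 (adjusted p = 0.127, SE 1.91) in vehicle against sham. Inhibitor against sham gave 5.12 (adjusted p = 0.161, SE 2.09), and neither passed. The fit without a count filter tested all 36 members and called none of these 4. The vehicle counts were uneven, at 19.9, 2.38 and 6.82 normalised counts. The ratio of inhibitor to vehicle was 0.490 (95% exact interval 0.248 to 0.971), an interval that covers counting error only. Adm, the vasodilator adrenomedullin, had 11, 21 and 29 counts in sham, vehicle and inhibitor groups, and 17 of the 21 vehicle counts were in library 1. Car9, a carbonic anhydrase that exports acid from hypoxic cells, had 3, 9 and 9 counts, a ratio of vehicle to sham of 2.97 (95% exact interval 0.741 to 17.0). Aldoc, the brain-type aldolase, had 5, 7 and 24 counts. For Adm, Car9 and Aldoc every interval between groups included equality.

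Beyond the members, 60 other genes of glycolysis, pyruvate handling, oxygen sensing and hypoxia induction were listed, of which 49 were tested. This list was made with earlier results of these data known, so its shares are no independent support. In vehicle against sham, 2 of the 49 were higher and none lower (edgeR, adjusted p), or 4.08% where 0.304% of all genes passed. Angptl4, a secreted inhibitor of lipoprotein lipase, had 18.6, 31.5 and 50.9 normalised counts in sham and 109.7, 89.2 and 165 in vehicle libraries, at 1.89 (adjusted p = 0.0415, SE 0.37). Lox, which cross-links collagen and elastin, had 155, 232 and 204 and 502, 407 and 416, at 1.17 (adjusted p = 0.0415, SE 0.23). The call of Angptl4 was lost in 6 of 15 alternatives, with adjusted p up to 0.304, among them the fits without sham library 1 or 2, any vehicle library or inhibitor library 3. That of Lox was lost in 7 of 15, with adjusted p up to 0.269, among them the fits without any one sham or vehicle library. Both genes are induced by hypoxia and by other signals. The 49 genes had a median of -0.04 with 21 positive values in vehicle against sham, near that of all genes.

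In inhibitor against vehicle none of the 49 passed. The smallest adjusted p were those of Gbe1, the glycogen branching enzyme, at 0.99 (adjusted p = 0.218, SE 0.35), Adpgk, an ADP-dependent glucokinase, at -0.74 (adjusted p = 0.222, SE 0.27), and Mpc2, a subunit of the mitochondrial pyruvate carrier, at 0.72 (adjusted p = 0.228, SE 0.26). Against sham, 4 of the 49 were higher and 1 lower in inhibitor knees, or 10.2% where 3.95% of all genes passed. Angptl4 had 67.5, 108 and 110.3 normalised counts in inhibitor libraries, at 1.54 (adjusted p = 0.0299, SE 0.36), and Lox had 317, 452 and 511, at 1.12 (adjusted p = 0.0152, SE 0.23). Ddit4, an inhibitor of mTOR signalling, had 34.9, 47.2 and 62.2 in sham and 140.3, 109.9 and 129 in inhibitor libraries, at 1.41 (adjusted p = 0.0288, SE 0.33). Bhlhe40, a transcriptional repressor, had 67.4, 94.4 and 66.0 and 131, 214 and 145, at 1.11 (adjusted p = 0.0365, SE 0.28). In vehicle against sham, with the same sham libraries, Ddit4 stood at 1.06 (adjusted p = 0.289, SE 0.34) and Bhlhe40 at 1.02 (adjusted p = 0.191, SE 0.28). Adpgk fell, with 214, 205 and 343 in sham, 139.6, 221 and 145 in vehicle and 81.0, 124 and 96.1 in inhibitor libraries, at -1.32 (adjusted p = 0.0141, SE 0.27). These calls too were lost in some of the alternatives. Bhlhe40 lost its call in 9 of 15 (adjusted p up to 0.226), among them the fits without any one sham library, vehicle library 1 or 3 or inhibitor library 2. Angptl4 lost its call in 6 of 15 (adjusted p up to 0.136), among them the fits without sham library 1 or 2, vehicle library 1 or inhibitor library 2 or 3. Ddit4 lost its call in 4 of 15 (adjusted p up to 0.133), among them the fits without any one sham library. Lox lost its call in 3 of 15 (adjusted p up to 0.0901), among them the fits without sham library 1 or 3, and Adpgk in 2 of 15 (adjusted p up to 0.0686), among them the fit without sham library 3. Of the partners and regulators of Hif1a, Epas1, Arnt, Egln2, Vhl and Hif1an were tested and none passed in any comparison.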

How the data were processed

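RNA of mouse knees was sequenced after ribosomal RNA depletion as paired reads, per the labels' protocols. The deposited table holds raw read counts per gene name, which featureCounts 2.0.1 made from pairs matching the reverse strand of GENCODE M25 exons, per the file headers. Reads mapping to several places were counted in full at each, and reads over several genes for each gene. The submitters' processing notes name HISAT2, without a version, and the mm10 build. Columns were matched to samples by name. The 27 per-sample columns of the other tables match no label and were not used.

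The following was computed here. Genes were filtered with filterByExpr, scaled by TMM and fitted over all 9 libraries with robust quasi-likelihood dispersions in edgeR 4.0.16 (limma 3.58.1, R 4.3.3), with a mean per group. Tests are two-sided, with Benjamini-Hochberg adjustment over 13823 genes and a threshold of 0.05. The standard error (SE) is the size of the log2 fold change over the root of the F statistic. DESeq2 1.42.0 was an alternative, beside no count filter, the compared groups alone, a replicate block, a muscle covariate and left-out libraries. The fit was tested on simulated counts with known changes in the vehicle group, where it recovered the sizes of the changes but missed most of the smaller ones, and the share of false calls was above the threshold, so an adjusted p just under the threshold is weaker evidence than its value says. Tables and figures used pandas 2.3.3, numpy 2.4.6, scipy 1.17.1 and matplotlib 3.10.9 in Python 3.11.15. Coordinates are the outer exon bounds on mm10, counted from 1. Sequence shared between genes was looked up in reference transcripts of another GENCODE release.

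The members and lists were chosen with earlier results of these data known. Every member is named with its levels. Fold changes are given where a member passed the threshold or its groups did not overlap, and for other pathway genes where they passed or had the 3 smallest adjusted p. Values given beyond this rule were chosen after they were seen. They are those for the members Slc2a1 and Ldhb and, without inhibitor library 1 or 2, for Hif1a, Eno1, Pfkl, Pgam1, Vegfa, Hk3, Ldhb, Ankrd37 and the muscle isoforms.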

Additional observations from a re-analysis of the deposited data

How the results depend on the processing

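Counts of called genes are given for vehicle against sham, inhibitor against vehicle and inhibitor against sham, in that order, where edgeR over all 9 libraries called 42, 101 and 546 genes and 0, 0 and 1 members. DESeq2 called 149, 316 and 841 genes and 1, 0 and 2 members. Without a count filter there were 262, 554 and 1056 genes and 2, 0 and 4 members, and with the compared groups alone 291, 3 and 198 genes and 3, 0 and 0 members. With a muscle covariate there were 194, 319 and 1174 genes and 0, 0 and 3 members, and Pfkm and Eno3 turned positive in vehicle against sham, at 0.12 and 0.33. Without inhibitor libraries 1 and 2, where the lone inhibitor library is assumed to vary like the other groups, there were 301, 20 and 174 genes and 3, 0 and 1 members. Leaving out 1 library at a time gave 1 to 234, 0 to 256 and 141 to 841 genes, and 0 to 2, 0 to 0 and 0 to 8 members, the highest member counts without inhibitor library 1. Of calls, 92.9%, 3.96% and 32.1% were higher. With DESeq2 these were 80.5%, 14.2% and 34.6%. Same-numbered libraries correlated at -0.24 to 0.07, so the numbers do not pair them, and a replicate block gave 24, 103 and 420 genes and 0, 0 and 1 members. Of 32 named fold changes 8 had a call, and 46 of their 120 alternative values lost it. For the other 24, 17 of 360 alternative values gained a call and 2 reversed. No alternative scaling moved the median of all genes by more than 0.1. At 8859 to 43322 member counts per library, the 4 members with the fewest counts could not be tested in the main fit.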
